A study of Mus musculus with 7 samples.

Results

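The library made from wild-type Ago2 was set against the empty control of the same series, 2 of its 7 libraries, over every mature miRNA in the deposited count table. The wild-type library holds small RNAs pulled down with an anti-Flag antibody through Flag-tagged Ago2 put into mouse embryonic stem cells. The series describes these cells as having an Ago-null background, that is, without Argonaute proteins of their own. The control is titled empty and has the genotype control. It went through the same anti-Flag step, and its labels do not say what, if anything, the cells were given in place of Ago2. They list its RNA as Ago2-bound, like that of the other libraries. The cells of all 7 libraries were grown on gelatin in serum with leukemia inhibitory factor. The other 5 libraries carry Ago2 with the changes K566A, Q548A, R792A_C793A, GKT_GKGT or PGKTP_AAAAA, and they serve here only to show where the control lies. There was 1 library per group, so p-values are not given and no difference could be checked against replicates. Intervals are exact 95% intervals unless named otherwise. Without molecular identifiers in the reads, they describe the error of counting and nothing else.

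Argonaute proteins hold a small RNA by both its ends and keep 1 strand of the duplex that Dicer makes, the guide, while the other strand is lost. The guide finds its targets mainly through its seed, bases 2 to 8 from the 5′ end. A pulldown from cells that lack the tagged protein collects what binds the antibody and the beads without it, together with anything that enters during library preparation and sequencing, and is therefore the usual measure of background.

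The sequences of the miRNAs that differed most are shown first, since several are near-identical members of 1 family. They are the RefSeq mature sequences (build GRCm38.p6), written 5′ to 3′ with the seed in capitals. RefSeq lists miR-21-5p of the table as miR-21a-5p and miR-292-5p as miR-292a-5p. The let-7 members share the seed GAGGUAG, and the first 4 below had an excess in the control:
let-7b-5p: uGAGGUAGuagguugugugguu
let-7c-5p: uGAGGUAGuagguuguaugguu
let-7a-5p: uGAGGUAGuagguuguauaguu
let-7f-5p: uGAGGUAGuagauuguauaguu
let-7i-5p: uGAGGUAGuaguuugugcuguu
let-7d-5p: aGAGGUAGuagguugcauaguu
Counting positions from 1 at the 5′ end, with the base of let-7b-5p first, let-7c-5p differs from it by G17A alone and let-7a-5p by G17A and G19A. The other 4 miRNAs in excess have seeds of their own, and miR-99b-5p is shown as an abundant relative of miR-100-5p with the same seed:
miR-203-3p: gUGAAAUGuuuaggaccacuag
miR-100-5p: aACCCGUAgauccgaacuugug
miR-99b-5p: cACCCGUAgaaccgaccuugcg
miR-21-5p: uAGCUUAUcagacugauguuga
miR-27b-3p: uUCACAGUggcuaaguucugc
The 2 miRNAs with a deficit in the control are 3p arms, shown with the 5p arm of the 1 hairpin whose arm share was called:
miR-423-3p: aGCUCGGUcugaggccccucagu
miR-423-5p: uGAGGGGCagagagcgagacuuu
miR-106b-3p: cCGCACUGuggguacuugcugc
The most abundant miRNA of both libraries is also given, because it sets most of each total:
miR-292-5p: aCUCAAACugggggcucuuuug

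The control held 33468 counts (exact Poisson interval 33110 to 33829) and wild type 94853871, so the control had 0.0353% of the wild-type total. Wild type thus had 2834 times more counts, and the 5 mutant libraries had between 446 and 2830 times the counts of the control. The amount of each library put on the sequencer was not given in the sources used here. A low yield of the pulldown and a small share of the sequencing cannot be told apart. One count in the control is 29.9 counts per 1000000 counts of the library (CPM), against 0.0105 CPM in wild type. A miRNA at 0 could still be present at 3 counts, that is 89.6 CPM in the control and 0.0316 CPM in wild type.

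**Figure D1:**
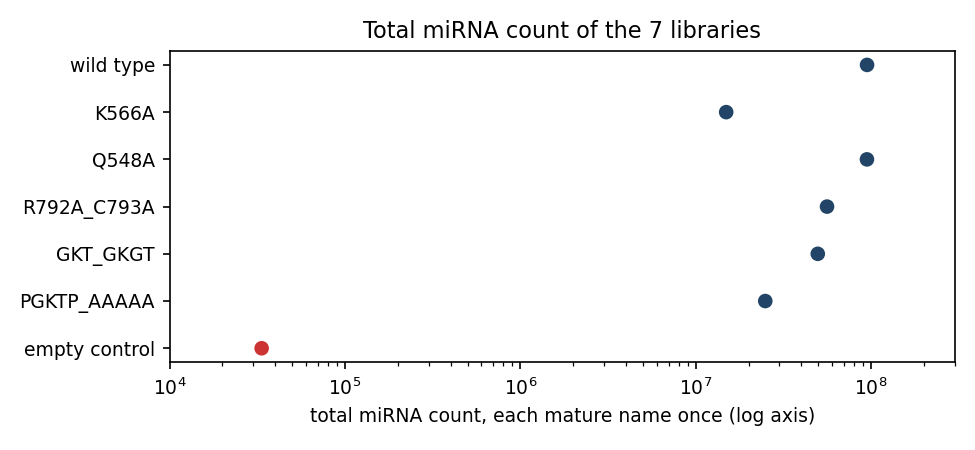
Total miRNA count of each library (horizontal log axis, each mature name counted once), with the control in red and the 6 Ago2 libraries in blue. The control lies at 33468 counts, and the Ago2 libraries lie between 14917476 and 94853871.

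The control carried the stem-cell profile of wild type at this low count. The miR-290 cluster dominates the miRNAs of mouse embryonic stem cells. Its member miR-292-5p had 21944 counts in the control, or 65.6% (Wilson interval 65.1 to 66.1), and 60394090 counts in wild type, or 63.7%. Its locus lies at chromosome 7, 3219201 to 3219222 (mm9), and in GENCODE M21 its hairpin falls within an exon of Nlrp12 on the opposite strand. The 14 names of the miR-290 cluster together took 77.7% of the control and 77.8% of wild type, a ratio of 0.999 (0.986 to 1.01). Of the 10 most abundant miRNAs of wild type 9 were also among the 10 most abundant of the control, and 45 of the 50 most abundant were shared. The exception was miR-293-5p, which ranked 7 in wild type and 13 in the control, where miR-191-5p ranked 9. miR-293-3p had 1842 counts in the control (5.504%, against 5.37% in wild type), miR-433-3p of the Dlk1-Dio3 cluster 807 (2.41% against 2.26%), miR-294-3p 667 (1.99% against 1.996%) and miR-99b-5p 539 (1.61% against 1.49%). miR-292-3p, which ranked 4 in the control, differed more, with 2.32% against 3.59%.

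Detection in the control followed the wild-type level. Among 959 mature names, wild type had a count for 800 and the control for 298, and no name had a count in the control without one in wild type. The wild-type share of each miRNA, multiplied by the control's total, gives the count that an equal share would put in the control. At 5 or more of these expected counts all 106 miRNAs were detected, and at 3 to 5 it was 27 of 29. The 2 at 0 were miR-323-5p (3.53 expected) and miR-425-5p (3.24 expected), which is too few to show a deficit at this depth. At 1 to 3 expected counts 76 of 92 miRNAs were detected, with 262 counts against 173 expected. The 573 miRNAs with fewer than 1 expected count had 174 counts against 89.9 expected. Of those 174 counts, 54 belonged to let-7b-5p, miR-203-3p and miR-100-5p, which together had 0.794 expected. The other 570 had 120 counts against 89.1 expected, with no more than 3 counts each. Some related names among them had near-equal counts in both libraries, such as miR-466b-5p and miR-466o-5p with 3 each in the control. The same reads may thus enter both sums more than once.

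A miRNA was tested when it had at least 5 counts in the control or at least 5 expected there, which 140 did. A call needed the whole exact interval of the ratio of shares, conditional on the sum of both counts, to lie above 2 or below 0.5. Of these 140, 8 were higher in the control (5.71%) and 2 were lower (1.43%), 10 in all (7.14%). By the ratio alone, without its interval, 29 lay above 2 (20.7%) and 9 below 0.5 (6.43%). The called miRNAs with bounds nearest to the limits were let-7f-5p (lower bound 2.12) and miR-106b-3p (upper bound 0.491), and the nearest not called were miR-92a-1-5p (lower bound 1.78) and miR-328-3p (upper bound 0.559). In all, 102 of 140 (72.9%) lay within 2-fold. The filter matters here: 34 of the 140 passed by their control count alone, and 7 of the 8 higher miRNAs are among them, so that count is not a share of an unselected set. Among the 106 that passed on the wild-type share, 1 was higher (0.943%), namely miR-27b-3p, and 2 were lower (1.89%), while 92 (86.8%) lay within 2-fold with a median log2 ratio of -0.022. Scaling by the median of ratios would move every log2 ratio down by 0.11.

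**Figure D2:**
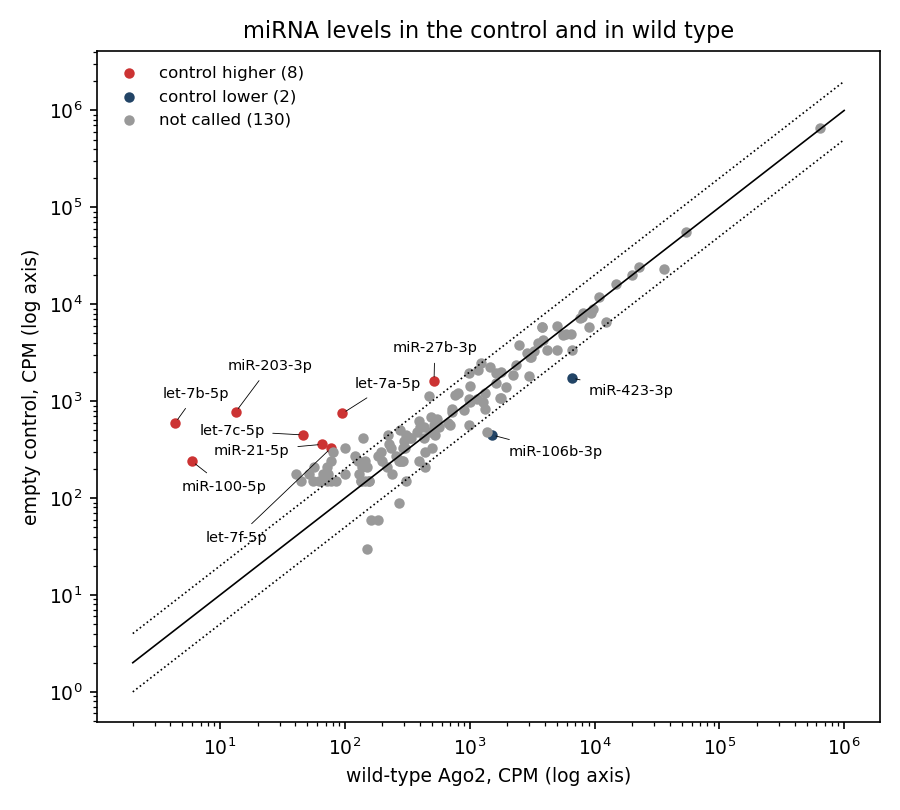
CPM in the control (vertical log axis) against CPM in wild type (horizontal log axis) for the 140 tested miRNAs. The solid line marks equal levels and the dotted lines 2-fold differences; the 8 miRNAs called higher in the control (red) lie to the left, at low wild-type levels except miR-27b-3p, and the 2 called lower (blue) lie below the lines.

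let-7b-5p was the miRNA with the largest excess. let-7 miRNAs are known as promoters of differentiation that are held low in embryonic stem cells, where Lin28 blocks their processing. let-7b-5p had 20 counts in the control and 415 in wild type, which gives 0.146 expected in the control. Its level was 598 CPM in the control, 4.38 in wild type, 6.90 in PGKTP_AAAAA, 2.74 in GKT_GKGT, 6.58 in R792A_C793A, 4.60 in Q548A and 39.4 in K566A. The control thus stood above all 6 Ago2 libraries, 136.6-fold over wild type (82.6 to 213.7) and 15.2-fold over the nearest, K566A (9.19 to 23.6). The locus is at chromosome 15, 85537755 to 85537776 (mm9), and its hairpin lies in an exon of the noncoding gene Lncppara. A copy of let-7c lies 709 nt away in the same gene.

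miR-203-3p, known from the differentiating layers of the skin, had 26 counts in the control and 1268 in wild type. Its level was 777 CPM in the control, 13.4 in wild type, 9.95 in PGKTP_AAAAA, 11.5 in GKT_GKGT, 18.3 in R792A_C793A, 13.4 in Q548A and 54.2 in K566A. The control again lay above all 6, by 58.1-fold over wild type (37.8 to 85.6) and 14.3-fold over K566A (9.31 to 21.2). It maps to chromosome 12, 113369138 to 113369159 (mm9), and no GENCODE gene other than its own spans it. The opposite arm, miR-203-5p, was at 0 in both libraries.

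miR-100-5p, the third of this group, rests on 8 counts in the control against 567 in wild type. Its level was 239 CPM in the control, 5.98 in wild type, 4.41 in PGKTP_AAAAA, 4.85 in GKT_GKGT, 11.2 in R792A_C793A, 6.70 in Q548A and 11.9 in K566A. The control was 39.99-fold over wild type (17.2 to 79.3) and 20.03-fold over K566A (8.52 to 40.3). The miR-100 locus (chromosome 9, 41339520 to 41339541, mm9) lies 5295 nt from a copy of let-7a. Its relative miR-99b-5p, with the same seed but 4 other bases, was not in excess, at 16105 CPM in the control against 14864 in wild type. The ratio of miR-100-5p to miR-99b-5p was 36.9 times higher in the control (15.8 to 73.7), a comparison chosen after the values were seen, as are the other ratios between relatives. miR-99a-5p, which differs from miR-100-5p by A16U alone, had 2 counts in the control with 0.0868 expected and did not pass the filter. The ratio of miR-100-5p to miR-99a-5p was 1.74 times that of wild type (0.343 to 16.9), an interval that includes 1. The excess was thus not shown to be particular to miR-100-5p among its relatives. Reads of miRNAs this alike can be assigned to each other's names.

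let-7c-5p and let-7a-5p were also above all 6 Ago2 libraries, by smaller factors. let-7c-5p, encoded at chromosome 15, 85537046 to 85537067, and chromosome 16, 77599917 to 77599938 (mm9), had 15 counts in the control, or 448 CPM. Its Ago2 libraries ran from 28.5 CPM in GKT_GKGT through 46.5 in wild type to 177 in K566A, which makes the control 9.64-fold over wild type (5.39 to 15.9) and 2.53-fold over K566A (1.41 to 4.18). let-7a-5p, encoded at chromosome 13, 48633608 to 48633629, and chromosome 9, 41344815 to 41344836 (mm9), had 25 counts, or 747 CPM, against 70.5 to 434 CPM in the Ago2 libraries and 95.5 in wild type. It was 7.82-fold over wild type (5.06 to 11.6) and 1.72-fold over K566A (1.11 to 2.55), an interval that reaches below 2. Intervals wholly above 1 against each of the 6 Ago2 libraries were found for 5 of 140 miRNAs (3.57%), the 5 named so far. Intervals wholly below 1 against each were found for 0 of 140 (0%). All 5 passed the filter by their control count alone, which no miRNA low in the control could do. The count above is therefore tilted by the filter and cannot be set against the count below. In each of the 5 the nearest library was K566A, whose total was the smallest of those 6. The part of depth in this was not tested.

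let-7f-5p, miR-21-5p and miR-27b-3p were higher than in wild type but not than in every Ago2 library. let-7f-5p had 11 counts in the control (329 CPM) against 77.5 CPM in wild type, 4.24-fold (2.12 to 7.59), and K566A had 438 CPM. Its call was lost with median-of-ratios scaling (log2 ratio 1.97) and with a 99% interval. miR-21-5p, abundant in fibroblasts and many adult tissues, had 12 counts (359 CPM) against 65.9 CPM in wild type, 5.44-fold (2.81 to 9.51). Its K566A level was 618 CPM, above the control. miR-21 lies in an exon of Vmp1 (mature sequence at chromosome 11, 86397622 to 86397643, mm9). miR-27b-3p, in an exon of 2010111I01Rik (mature sequence at chromosome 13, 63402068 to 63402088, mm9), had 54 counts (1613 CPM) against 518 CPM in wild type, 3.11-fold (2.34 to 4.06), and 2175 CPM in K566A. Its relative miR-27a-3p, which differs by U19C, had 38 counts and was 2.39-fold over wild type (1.69 to 3.28), not called. The ratio of miR-27b-3p to miR-27a-3p was 1.30 times that of wild type (0.845 to 2.03), an interval that includes 1.

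**Figure D3:**
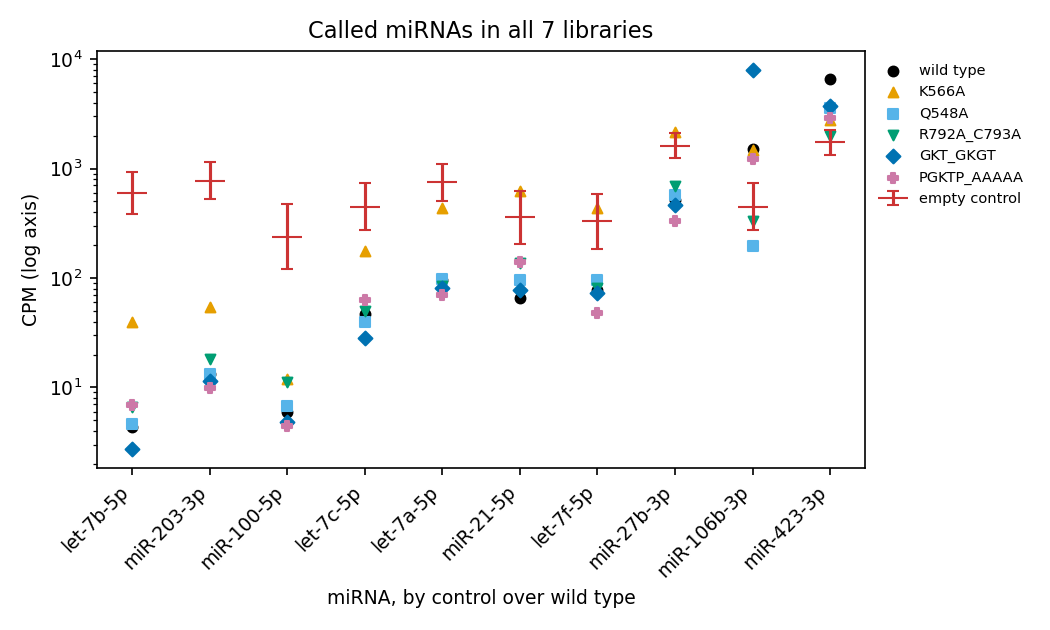
CPM (vertical log axis) of the 10 called miRNAs, ordered by their ratio of control to wild type, in each of the 7 libraries. Red lines give the control with its Wilson 95% interval; it lies above all Ago2 libraries for let-7b-5p, miR-203-3p, miR-100-5p, let-7c-5p and let-7a-5p, and within or below their range for the rest.

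The 8 miRNAs were a small part of the control. Together they had 171 counts, 0.511% of its total, against 27.7 expected, and 0.0827% of wild type. As raw counts, without scaling, the control had 4.82% of the wild-type count of let-7b-5p, 2.05% of miR-203-3p and 1.41% of miR-100-5p. For the other 5 this lay between 0.110% and 0.340%, and for the 132 tested miRNAs not called higher it was at most 0.156%. Over all counts it was 0.0353%. Each of these percentages is the ratio of shares times that value, so they restate the calls and are no separate check.

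Members of the let-7 family with the same seed differed in their excess. Besides the 4 called, let-7i-5p had 7 counts with 1.90 expected (3.69-fold, 1.48 to 7.61), let-7g-5p 5 with 2.85 expected (1.76-fold, 0.570 to 4.10) and let-7e-5p 3 with 2.32 expected. miR-98-5p rests on 1 count, with 0.137 expected (7.30-fold, 0.184 to 40.9). let-7d-5p had 2 counts with 3.08 expected, a ratio of 0.649 (0.0786 to 2.34). let-7d-5p is encoded 2161 nt from a copy of let-7a on chromosome 13. The ratio of let-7a-5p to let-7d-5p was 12.1 times higher in the control (3.005 to 105). let-7b-5p outnumbered let-7c-5p in the control by 1.33 to 1, against 0.0941 to 1 in wild type and at most 0.222 to 1 in any Ago2 library. That is a 14.2-fold difference from wild type (6.83 to 29.9) between miRNAs that differ by 1 base. let-7c-5p and let-7a-5p kept a ratio near that of wild type (1.23 times, 0.603 to 2.43). Reads of such near-identical sequences can be assigned to each other's names, so these values are uncertain (handling of mismatches: not given in the sources used here). Over the whole list of 21 names with miR-98, 12 had a count in the control, 6 were tested and 4 were higher, beside 5.71% of all tested miRNAs, with a median log2 ratio of 2.53 beside 0.13 over all 140. None of the 6 passed on the wild-type share, so this median is of members picked by their control count. The sum over all 21, which no filter touches, was 93 counts against 22.3 expected, 4.18-fold (3.37 to 5.12). Of these 93 counts, 71 belonged to the 4 called members, which had 7.49 expected. The sum thus mostly restates those 4 and does not show an excess across the family.

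**Figure D4:**
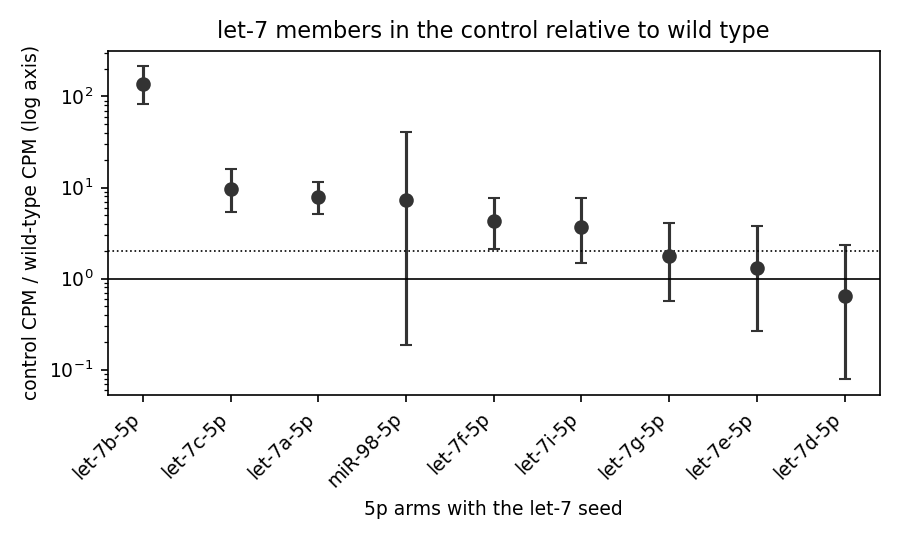
Ratio of control CPM to wild-type CPM (vertical log axis) with exact 95% intervals for the 9 miRNAs with the let-7 seed. The solid line marks a ratio of 1 and the dotted line 2; let-7b-5p stands at 136.6, the next at 9.64, and let-7d-5p below 1 with an interval that includes it.

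Markers of other cell types were read as sums over whole lists, so that no filter on the control entered. These lists were chosen with earlier results of these data known. Low-level miRNAs in general had more counts than expected, so a ratio above 1 is not by itself a trait of a list. The miRNAs with 1 to 3 expected counts had 262 against 173 expected, and those with 3 to 5 had 150 against 111. Those with 5 to 10 had 185 against 174, and those with 10 to 30 had 560 against 465. Those with 30 to 100 had 1299 against 1275, and those with 100 or more had 30838 against 31179. No list was matched to miRNAs of like level. The epithelial and skin list of 14 names (miR-200 family, miR-203, miR-205) had 78 counts against 31.8 expected, 2.45-fold (1.94 to 3.06), and 26 of the 78 were miR-203-3p. miR-205-5p, another miRNA of skin and other surface epithelia, had 15 counts with 7.42 expected (log2 ratio 1.02, 0.18 to 1.74), miR-200c-3p had 15 with 10.3 expected, and both arms of miR-141 were at 0 with at most 0.279 expected each. The fibroblast list of 27 names had 105 counts against 71.1 expected, 1.48-fold (1.21 to 1.79). Its called member miR-21-5p had 12 counts with 2.21 expected. miR-143-3p had 35 counts with 33.3 expected, miR-22-3p had 39 with 25.7 expected, and miR-199a-5p was at 0 with 0.349 expected. The blood list had 24 counts against 18.5 expected, of which miR-150-5p gave 23, and miR-142, miR-144, miR-486 and miR-223 were at 0 in the control. Each arm of these had at most 0.648 expected counts and miR-223 was at 0 in wild type too, so the depth of the control could not show them at the wild-type share. The muscle list had 5 counts against 1.54 expected, 3.25-fold (1.06 to 7.60), with miR-499-5p at 3 counts. miR-499-5p had 4207 of the list's 4354 wild-type counts, so most of the expected count was its own. The rest of the 5 were 1 count each of miR-1a-3p and miR-206-3p, which had 60 and 19 counts in wild type. The ratio thus rests on few reads. The intervals of the liver (3 counts), endothelial (6), neural (159) and pancreas (34) lists included 1, with ratios between 0.975 and 1.52. Most counts of the neural list belonged to miR-128-3p, so its sum mainly reflects that miRNA. Of the 3 tested members of the neural list, miR-128-3p had a log2 ratio of 0.13 and miR-129-5p one of 0.065. The highest of the 3 was miR-9-5p, known from neural tissue, with 7 counts and 2.39 expected. Whether cells other than stem cells contributed to the control was not tested.

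Among clusters and families other than miR-290 and let-7, the sums of miR-17-92 with its paralogs and of the Sfmbt2 cluster lay above wild type, and that of the Dlk1-Dio3 cluster below it. These sums, too, were not matched to miRNAs of like level. miR-17-92 and its paralogs, which promote cell growth, had 701 counts against 521 expected, 1.35-fold (1.25 to 1.45). Of 15 members tested none was called higher and 1 lower, which is near the 7.14% of all tested miRNAs. They had a median log2 ratio of 0.61 beside 0.13 over all 140, and 0.55 over the 12 that passed on the wild-type share. miR-92a-3p had 2480 CPM in the control against 1235 in wild type (log2 ratio 1.005, 0.68 to 1.32), miR-92b-3p 5826 against 3767 CPM (0.63) and miR-25-3p 3765 against 2469 CPM (0.61). These 3 share the seed AUUGCAC with miR-363-3p and miR-32-5p, and over these 5 tested miRNAs the log2 ratio of the sums was 0.69. The miR-302 cluster had 26 counts against 17.9 expected (1.45-fold, 0.949 to 2.13), led by miR-302b-3p with 18. The Dlk1-Dio3 cluster, an imprinted group of miRNAs expressed from the maternal allele, had 2666 counts against 2922 expected, 0.912-fold (0.878 to 0.948), with 0 of 27 tested members called, against 7.14% of all tested miRNAs, a share at which few calls would fall in a list of this size. The Sfmbt2 cluster had 51 counts against 31.9 expected (1.60-fold, 1.19 to 2.10). Several of its names are near-identical in counts, and with each such set taken once it had 42 counts against 29.5 expected (1.42-fold, 1.03 to 1.92). The miR-183 cluster (1.05), the miR-30 family (1.28), the miR-15/16 family (1.30) and the miRNAs with numbers of 4 digits (0.846) had intervals that include 1. The miRNAs made without Drosha or Dicer had 73 counts against 94.0 expected (0.777, 0.609 to 0.976). Much of this shortfall was miR-1981-5p, with 28 counts against 44.6 expected. The log2 ratios of the 3 tested members ran from -0.67 for miR-1981-5p to 0.055, and 1 of the 3 had an interval below 1.

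miR-423-3p and miR-106b-3p were called lower in the control. miR-423-3p had 58 counts with 220 expected. Its level was 1733 CPM in the control, 6560 in wild type, 2909 in PGKTP_AAAAA, 3749 in GKT_GKGT, 2002 in R792A_C793A, 3565 in Q548A and 2802 in K566A. Wild type was the highest of the 7 libraries and the control the lowest, 0.264-fold of wild type (0.201 to 0.342) and 0.866-fold of R792A_C793A (0.657 to 1.12), so the deficit was not found against that mutant. The 2-fold limit was passed against wild type alone. miR-106b-3p, from an intron of Mcm7 (chromosome 5, 138606974 to 138606995, mm9), had 15 counts with 50.4 expected. Its level was 448 CPM in the control, 1507 in wild type, 1227 in PGKTP_AAAAA, 7989 in GKT_GKGT, 329 in R792A_C793A, 195.3 in Q548A and 1470 in K566A. The control was 0.297-fold of wild type (0.166 to 0.491) but lay above Q548A and R792A_C793A, within the range of the Ago2 libraries. The call was lost with library sizes without miR-292-5p (log2 ratio -1.67) and with a 99% interval.

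Smaller deficits, with an interval wholly below 1, were seen in 20 of the 140 miRNAs (14.3%), and smaller excesses, with an interval wholly above 1, in 33 (23.6%). Both counts include the called miRNAs, and among the 106 that passed on the wild-type share they were 20 (18.9%) and 16 (15.1%). For 18 of the 20 the control lay within the range of the 6 Ago2 libraries, beside 116 of all 140. Wild type was the highest Ago2 library for 6 of the 20, beside 14 of the 140. Of the 33, 26 lay within the range, and wild type was the lowest Ago2 library for 6, beside 15 of the 140. Selection by a difference from wild type favors a wild type at the end of the range. Abundant members of the 20 were miR-292-3p (777 counts, log2 ratio -0.63, -0.73 to -0.53), miR-293-5p (6603 CPM, -0.90, -1.09 to -0.71), miR-296-3p (197 counts, -0.63), miR-370-3p (114 counts, -0.94) and miR-291a-5p (114 counts, -0.57). miR-328-3p, with 16 counts and 46.5 expected, came closest to the limit (-1.54, -2.35 to -0.84). Among the 33, miR-423-5p had 5797 CPM in the control against 3779 in wild type (log2 ratio 0.62, 0.41 to 0.82). By first base, over the miRNAs that passed on the wild-type share and have a RefSeq sequence, an interval above 1 was found for 10 of 44 that begin with U, 3 of 24 with A, 2 of 17 with C and 0 of 9 with G. Intervals below 1 were found for 4, 6, 4 and 3 of them in the same order. The median log2 ratio was 0.12 for U, -0.087 for A, -0.24 for C and -0.12 for G. The median of no class thus stood more than 0.24 from 0.

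Arm use was compared within hairpins, where the library total cancels. Of 493 hairpins with a 5p and a 3p arm in the table, 101 had at least 10 counts of both arms together in the control. The same arm was the more abundant in both libraries for 97 of them. The major arm of wild type took a median of 99.2% of a hairpin's counts in wild type and 100% in the control. At such shares in wild type, a shared major arm says little. Mature arms with several loci, such as let-7a-5p and miR-128-3p, were paired at each locus. Their counts therefore enter several of the 101 hairpins, which are not all separate. The odds of the 5p to the 3p arm were called past 2-fold for 1 of 101 upward (0.99%) and 0 of 101 downward (0%). Intervals wholly above 1 were found for 3 (2.97%), miR-292, miR-296 and miR-423, and wholly below 1 for 5 (4.95%), miR-293, miR-351, miR-485, miR-673 and miR-92b. That hairpin was miR-423, in an intron of Nsrp1 (arms from 76891588 to 76891646 on chromosome 11, mm9). Its 5p arm took 77.0% of its counts in the control (Wilson interval 71.4 to 81.8), and 36.6% in wild type, an odds ratio of 5.81 (4.31 to 7.93). In the mutants the 5p share was 63.5% in PGKTP_AAAAA, 58.1% in GKT_GKGT, 81.6% in R792A_C793A, 69.5% in Q548A and 87.2% in K566A. Wild type was the only Ago2 library in which the 3p arm was the major one, and the control lay within the range of the mutants.

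Other abundant hairpins differed less. The 5p share of miR-293 was 10.7% in the control (9.45 to 12.1) and 18.6% in wild type, and between 1.33% and 16.3% in the mutants, so wild type was the highest. The 5p share of miR-292 was 96.6% in the control and 94.7% in wild type, against 75.6% to 98.1% in the mutants. The 5p share of miR-291a, which ran from 16.2% to 93.5% among the mutants, was 40.7% in the control and 43.8% in wild type. miR-485 (1 and 11 counts), miR-673 (8 and 14 counts) and miR-30c with miR-30c-2-3p (7 and 8 counts) had the other major arm in the control than in wild type, on few counts and without a call.

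**Figure D5:**
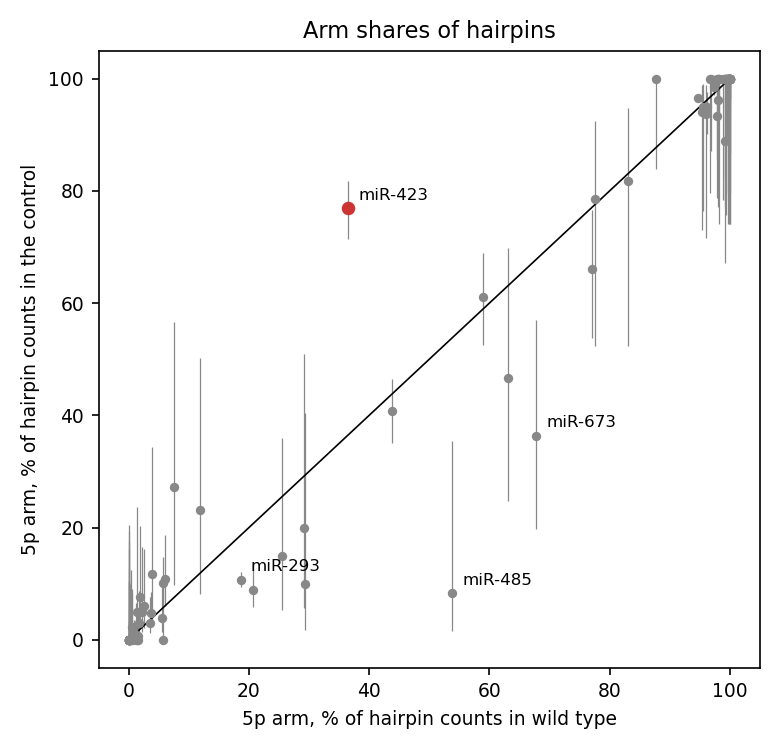
Share of the 5p arm in each hairpin's counts in the control (vertical axis, %, with Wilson 95% intervals) against wild type (horizontal axis, %) for 101 hairpins. The line marks equal shares; miR-423 (red), at 77.0% against 36.6%, is the hairpin that was called.

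Set against each Ago2 library in turn, with the filter applied anew, the control differed in the smallest share of tested miRNAs from Q548A and in the largest from K566A. Against Q548A 6 of 139 miRNAs were higher (4.32%) and 0 lower (0%), and against R792A_C793A 7 of 149 were higher (4.7%) and 2 lower (1.34%). Against GKT_GKGT it was 21 of 154 (13.6%) and 8 (5.19%), against PGKTP_AAAAA 30 of 140 (21.4%) and 3 (2.14%), and against K566A 28 of 178 (15.7%) and 40 (22.5%). Against the sum of all 6, 5 tested miRNAs were higher (3.47%) and 2 lower (1.39%). The median size of the log2 ratio over the 140 miRNAs was 1.35 for K566A, 1.07 for PGKTP_AAAAA, 0.85 for GKT_GKGT, 0.52 for R792A_C793A, 0.52 for wild type and 0.39 for Q548A. Spearman's correlation over the same 140 miRNAs, which share the control's counts and were picked partly by them, was 0.899 for Q548A, 0.887 for wild type and 0.729 for K566A. miR-292-5p took 65.6% of the control, 65.3% of Q548A and 21.7% of K566A. Of all tested miRNAs, 116 of 140 had a control level within the range of the 6 Ago2 libraries, 16 lay above it and 8 below it. The filter, which also admits miRNAs by their control count, favors those above. let-7b-5p, miR-203-3p and miR-100-5p were called higher in the control against each of the 6. Of the 2 miRNAs called lower against wild type, miR-423-3p was called against no mutant and miR-106b-3p against GKT_GKGT alone.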

How the data were processed

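The deposited table holds raw read counts per mature miRNA locus, not normalized by the authors as far as the values show, in 1078 rows and 7 columns. CASAVA 1.8.2, TopHat2 2.0.9 and mm9 are named in the submitters' processing notes. The annotation release, the counting program and how multiply mapping reads were handled were not given in the sources used here. All 7 columns matched a sample. Each mature name was counted once, by its highest locus (65 names had several), and CPM were computed with that total as library size. Ratios carry exact conditional 95% intervals (Clopper-Pearson on the control's part of both counts). Arms of 1 name on 1 chromosome with starts within 150 nt formed a hairpin. Sequences were matched by name to RefSeq for 785 of 959 names (30 with the letter a added to the number). Named miRNAs were the 10 most abundant of each library, the called miRNAs and hairpins by the bound nearest to 1, and up to 4 abundant members and the extremes of each list, and miRNAs at 0 in the control with at least 10 counts expected (0 found). All others named were chosen after their values were seen. The members, lists and call rules were chosen with earlier results of these data known. SciPy 1.17.1 and pandas 2.3.3 were used, and the calls were tested on simulated data.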

Additional observations from a re-analysis of the deposited data

How the results depend on the processing

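No paired analysis was possible because each group had 1 library. The main counts were 8 miRNAs higher and 2 lower in the control. let-7f-5p was no longer called with median-of-ratios scaling (log2 ratio 1.97), which left 7 higher, and miR-106b-3p was not called with library sizes without miR-292-5p (-1.67), which left 1 lower. A minimum of 30 counts left 1 higher, no filter gave 13 (5 added names with 1 or 2 counts), requiring 100 CPM on average in the mutants left 4 higher and 2 lower, and the wild-type share alone, chosen after seeing the data, left 1 higher. With a fold limit of 1.5 there were 15 higher and 5 lower, with 3 there were 5 higher (let-7a-5p, let-7b-5p, let-7c-5p, miR-100-5p and miR-203-3p) and 0 lower, with a 99% interval 7 higher and 1 lower (let-7f-5p and miR-106b-3p lost), and with the point ratio alone 29 and 9. With another reference, K566A gave 28 higher and 40 lower, Q548A 6 and 0, GKT_GKGT 21 and 8, PGKTP_AAAAA 30 and 3, and the sum of the 6 Ago2 libraries 5 and 2. For hairpins (1 with a higher 5p share and 0 with a lower one), a minimum of 5 counts added 1 higher, miR-19b, for 2. The miR-19b call rests on 1 count of miR-19b-1-5p in the control, beside 6 of miR-19b-3p. A fold limit of 1.5 gave 4 lower (miR-293, miR-351, miR-485 and miR-92b). A minimum of 10 counts removed miR-100-5p, leaving 7 higher. Minimums of 3 and 10 counts, every locus row, sums over loci and merged names with equal counts (chosen after seeing the data) stayed within 1.5 times of both counts. Taking near-equal names of a list once, also chosen then, left every list sum on its side of 1. The causes were not tested. The control's depth sets the limit: a miRNA at 0 there could still have up to 89.6 CPM.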
